A study of Rattus norvegicus with 6 samples.

Results

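Translation initiation factors are the proteins that bring a ribosome to the start codon of an mRNA. Their mRNA levels were compared between islets of the pancreas taken from young rats, aged 3 months, and from older rats, aged 12 months. All genes whose symbol is Eif followed by a digit were taken, except Eif2ak3 and Eif2c2, which gave 37 of the 13903 genes named on the array. All 37 were measured well enough to be tested, among 11201 tested genes. The rule rests on gene symbols.

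The study profiled islet RNA of ageing rats on 1-colour microarrays, 1 array for each of 3 rats of 3 months and 3 rats of 12 months. All animals were male and of the Wistar strain, and none carried a transgene or received a treatment according to the labels. Islets had been freed by collagenase digestion, so the RNA is that of a mixed preparation and not of sorted beta cells. In bulk RNA of this kind, fewer cells of a type and less RNA per cell cannot be told apart.

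Initiation begins when eIF2, a complex of alpha, beta and gamma subunits, delivers the initiator tRNA together with GTP to the small ribosomal subunit. eIF2B is the exchange factor that reloads eIF2 with GTP after each round, and kinases that phosphorylate the alpha subunit turn eIF2 into an inhibitor of eIF2B. The mRNA is brought in by eIF4E, which binds the cap, by the scaffold eIF4G and by the helicase eIF4A, whereas 4E binding proteins keep eIF4E away from the scaffold. eIF3 holds this assembly together, and eIF1 and eIF1A check the start codon. Beta cells make large amounts of proinsulin, and the phosphorylation of eIF2 alpha is a known brake on protein synthesis in them.

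On each array, 73.0% to 77.4% of the probes were well above background at 3 months and 59.5% to 64.2% at 12 months. The negative control spots had a median signal of 29.5 to 31 at 3 months and 89.5 to 91 at 12 months, before normalization. All arrays of an age were read in the same scan and no scan held both ages, and what came from the scan and what from age cannot be told apart. Levels are given on the log2 scale after quantile normalization, differences are 12-month minus 3-month, and errors are SD over 3 arrays unless named SE. Differences were tested with limma (two-sided) and adjusted p values are Benjamini-Hochberg values over all 17941 tested probes. The labels do not say more of how the arrays of an age differ than that they came from separate rats, and the p values measure only the spread between these arrays.

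Markers of the islet were present on every array. The probes of the hormone genes Ins1, Ins2, Gcg, Sst and Ppy were all well above background, with differences between -0.12 and 0.44, and none was called. The acinar enzymes, products of the exocrine pancreas, were also well above background on all 6 arrays. The log2 of their summed signal over 8 probes ranged from 20.7 to 21.2 at 3 months and from 20.6 to 21.3 at 12 months. Of the 8, 0 were called. The sum hides uneven enzymes. Ctrb1 was at 16.6, 17.1 and 14.0 at 3 months and at 17.6, 14.4 and 17.9 at 12 months. Cel was at 17.1, 17.3 and 14.8, and at 17.4, 14.4 and 17.9. Pnlip was even, with SDs of 0.11 and 0.03. Other lists moved with age. The 5 Schwann and nerve markers tested had a median difference of -1.42 with 2 called lower, and their summed signal ran from 11.8 to 12.8 at 3 months and from 10.7 to 11.2 at 12 months. The 4 stellate and mesenchymal markers had a median of 1.54 with 1 called higher and sums of 13.2 to 14.0 and 14.5 to 15.9. Of the 4 endothelial markers, Tek and Plvap were lower at 12 months without overlap and Pecam1 was higher without overlap, while Cdh5 had no 12-month array well above background, and 0 of the 4 were called. Of the beta cell markers, 1 of 5 beta cell markers, the glucose transporter gene Slc2a2, was called higher. The part of these markers in the results below was not tested.

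The initiation factor genes differed in both directions, with 18 differences above 0 and 19 below. The median difference over the 37 genes was -0.05, beside -0.17 over all tested probes. The median size of the difference, without its sign, was 0.51, beside 0.60 over all tested probes. A difference of more than 2-fold was seen for 10 of the 37 genes and for 4933 of the 17941 tested probes. At an adjusted p under 0.05, 2 genes were higher at 12 months (5.41%), Eif2s1 and Eif4e3, and 1 was lower (2.70%), Eif2b5. The share over all tested probes was 5.32% for higher calls, 3.05% for lower calls and 8.37% for either direction, against 8.11% of the initiation factors.

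The study itself used a more lenient threshold, an unadjusted p under 0.05 together with a fold of over 2. Its p values came from the methods' paired t-test, whereas the same limits are applied here to the unadjusted p of limma. In this way 7 genes were higher, Eif1, Eif1ax, Eif2ak1, Eif2s1, Eif4a1, Eif4e3 and Eif4ebp2, and Eif2b5 alone was lower. With the methods' paired t-test on these values 2 were higher and 1 lower, and with its unpaired form 3 and 1. The limma higher calls made up 18.9% of the initiation factors and 10.1% of all tested probes, the lower calls 2.70% and 11.9%, and both directions together 21.6% and 22.0%. An unadjusted p under 0.05 was reached by 11 genes (29.7%), against 32.4% of all probes. The arrays of the 2 ages did not overlap for 9 genes higher at 12 months (24.3%, against 16.5% of all probes) and 6 lower (16.2%, against 22.6%), which was 40.5% in either direction against 39.1%. These count shares are descriptions, and the difference between the list and all probes was not tested.

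**Figure D1:**
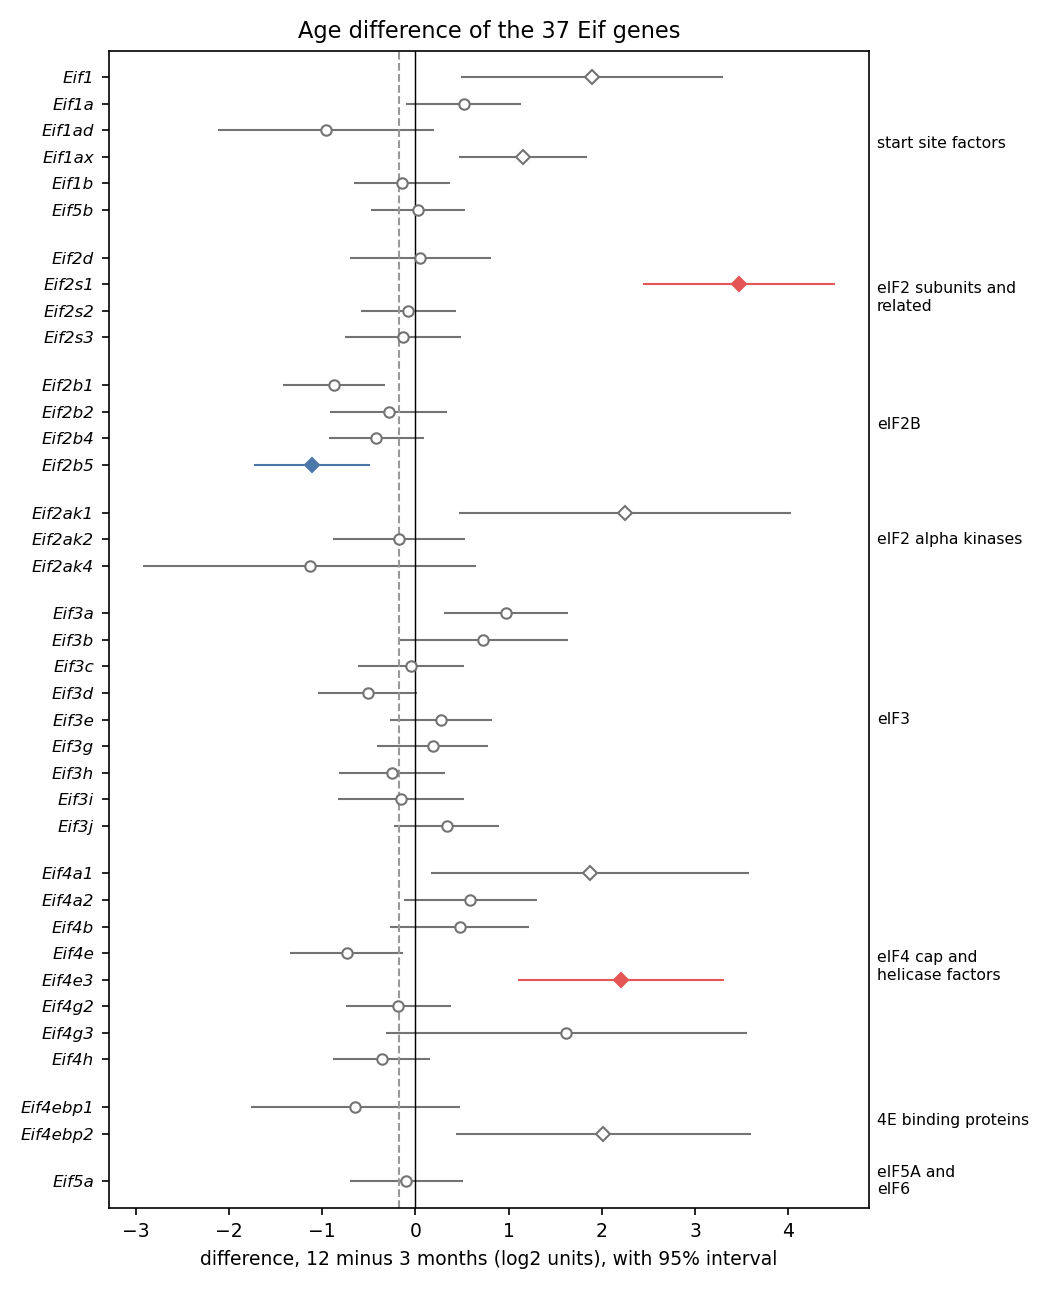
Difference between 12 and 3 months (log2 units) of each of the 37 Eif genes, grouped by role, with the 95% interval from limma as a horizontal bar and 3 arrays per age. Filled red and blue diamonds mark genes higher and lower at an adjusted p under 0.05, open diamonds those past only the threshold of the study, and the dashed line the median of all tested probes at -0.17. Eif2s1 lies farthest to the right at 3.47, and all 4 eIF2B genes lie left of 0.

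The gene of eIF2 alpha was called higher at 12 months and that of the catalytic subunit of its exchange factor eIF2B was called lower. For these genes, Eif2s1 and Eif2b5, the bases just upstream of their RefSeq start sites are printed here. Those of Eif2b1 and Eif4e, which hold a match to a motif within the printed bases, are given as well. Each line holds 100 bases on the strand of the gene, ending at the base before the start, from RefSeq on assembly GRCr8. The windows lie at chr6:103405780-103405879 (plus strand) for Eif2s1, at chr12:37686475-37686574 (plus strand) for Eif2b1, at chr11:93908801-93908900 (minus strand) for Eif2b5 and at chr2:229740653-229740752 (plus strand) for Eif4e. Capitals mark a match to one of the searched motifs on either strand, and lines without capitals hold none in these bases. The search covered 250 bases, and Eif2s1 and Eif2b1 hold a GC box farther upstream than the bases printed.
Eif2s1: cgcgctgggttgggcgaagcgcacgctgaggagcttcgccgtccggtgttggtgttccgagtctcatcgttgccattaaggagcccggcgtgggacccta
Eif2b1: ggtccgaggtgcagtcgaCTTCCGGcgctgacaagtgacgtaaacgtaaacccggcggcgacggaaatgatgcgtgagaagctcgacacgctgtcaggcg
Eif2b5: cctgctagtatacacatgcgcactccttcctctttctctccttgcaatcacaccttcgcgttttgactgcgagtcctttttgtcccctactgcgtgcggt
Eif4e: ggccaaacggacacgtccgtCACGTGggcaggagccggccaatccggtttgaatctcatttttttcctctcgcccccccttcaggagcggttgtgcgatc

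In the 250 bases before the start, searched on both strands, the ETS motif CCGGAAG was found in 13 of the 32 initiation factor genes with a window (40.6%). It was found in 13.4% of 9180 tested genes and in 8.11% of all 27457 genes with a window. The match in the Eif2b1 window begins 82 bases before the start. The E-box CACGTG was found in 5 of the 32 (15.6%), against 7.69% of the tested genes and 6.18% of all. Its 5 holders were Eif1b, Eif3b, Eif4e, Eif4h and Eif5a, and in Eif4e the match begins 80 bases before the start. The GC box GGGCGG was found in 22 (68.8%), against 51.7% and 33.5%. No motif contains another, and the matches of each were counted on their own. Of the 13 genes holding the ETS motif, 6 had a positive difference between the ages and 7 a negative one. A match is a description of these letters and not of a bound factor. A gene with several windows was counted once if any of them held the motif, and Eif3h, Eif3e, Eif4ebp1, Eif4e3 and Eif4b had no window.

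Eif2s1 encodes eIF2 alpha, the subunit that stress kinases phosphorylate. Its level was 7.15, 6.04 and 5.77 on the 3-month arrays and 9.59, 9.47 and 10.30 on the 12-month arrays. All 12-month arrays were above all 3-month arrays, with more than 2 log2 units between the nearest of them. The mean rose from 6.32 ± 0.73 to 9.79 ± 0.44 (SD, n = 3), a difference of 3.47 (SE 0.43, 95% interval 2.44 to 4.50) or 11.1-fold, with a limma adjusted p of 0.0100. The call remained in each of the 6 fits that left out 1 array, with adjusted p values of 0.0191 to 0.0487, but the methods' paired t-test gave an adjusted p of 0.269 and its unpaired form 0.0597, and the 4 arrays whose deposited names end alike gave 0.0910 in limma. With normexp background correction the difference was 2.69, or 6.46-fold.

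The genes of the other subunits had differences near 0. Eif2s2, the gene of the beta subunit that contacts the initiator tRNA, differed by -0.08 (95% interval -0.59 to 0.44). Eif2s3, the gene of the GTP-binding gamma subunit, differed by -0.13 (-0.76 to 0.49). Eif2d, whose product can deliver tRNA to the ribosome apart from eIF2, differed by 0.05 (-0.70 to 0.81). The 3-month and 12-month arrays overlapped for all 3 of these genes, and their intervals lie below the lower bound of Eif2s1. Within arrays, the log2 ratio of Eif2s1 to Eif2s2 was 3.55 higher at 12 months and that of Eif2s1 to Eif2s3 was 3.60 higher, without overlap of the ages. The exact permutation test of 3 arrays against 3 gave a two-sided p of 0.1 for each, the smallest it can give. After adjustment over 8 ratios it was 0.16. As the pairs were chosen after the values were seen, these p values add no support to the call of Eif2s1.

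The 4 eIF2B genes on the array all had lower means at 12 months, with differences of -1.11 to -0.29, 1 of them called, and all 4 stayed below 0 under the 4 scalings tried. Eif2b5 encodes eIF2B epsilon, the catalytic subunit that exchanges GDP for GTP. Its level was 10.39, 10.45 and 10.94 at 3 months and 9.33, 9.71 and 9.41 at 12 months. All 12-month arrays were below all 3-month arrays, and the mean fell from 10.59 ± 0.30 to 9.48 ± 0.20 (n = 3), a difference of -1.11 (SE 0.26, 95% interval -1.73 to -0.49) or 2.16-fold, with a limma adjusted p of 0.0492. This value lies close to the threshold, and of the 6 fits without 1 array the call was made only without 12-month array 2 (0.0488), the 5 others giving 0.0774 to 0.172. It was also not made when arrays were shifted to a common 75th percentile (0.0525), and the threshold of the study was missed without 3-month array 3 and with normexp (1.87-fold).

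Eif2b1 encodes the alpha subunit of eIF2B, part of the regulatory core that senses phosphorylated eIF2. Its level was 12.52, 12.29 and 12.54 at 3 months and 11.52, 11.77 and 11.44 at 12 months, again without overlap. The difference of -0.87 (SE 0.23) had a limma adjusted p of 0.0622 and so was not called. Eif2b4, for the delta subunit, had 3-month values of 12.69, 12.81 and 12.70 and 12-month values of 12.20, 12.31 and 12.43, a difference of -0.42 with an adjusted p of 0.219. Only Eif2b2, for the beta subunit, had overlapping arrays, with a difference of -0.29 and an adjusted p of 0.470. The median over the 4 was -0.65, beside -0.17 over all tested probes.

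**Figure D2:**
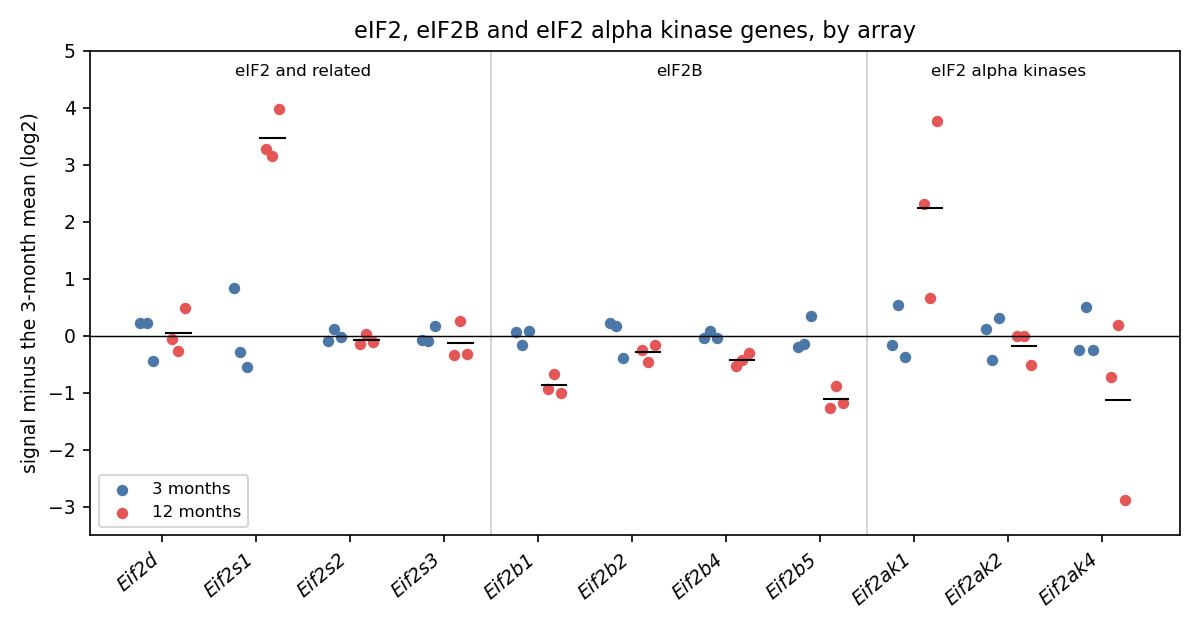
Signal of the eIF2, eIF2B and eIF2 alpha kinase genes on each array, minus the mean of the 3-month arrays of that gene (log2 units), with 1 point per array and a short line at each 12-month mean. The 12-month points of Eif2s1 lie above 3, those of Eif2b1, Eif2b4 and Eif2b5 all lie below the 3-month points, and those of Eif2ak1 spread widely.

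Of the 3 eIF2 alpha kinase genes taken here, which leave out the kinase PERK (Eif2ak3), 0 were called by limma at an adjusted p under 0.05 and 1, Eif2ak1, at an unadjusted p under 0.05. Eif2ak1 encodes the haem-regulated kinase HRI. Its level was 6.10, 6.80 and 5.90 at 3 months and 8.58, 6.92 and 10.03 at 12 months. The ages did not overlap, but 12-month array 2 lay only just above 3-month array 2 and the 12-month SD was 1.56, against 0.47 at 3 months. The difference of 2.25 (SE 0.75, 4.75-fold) passed the threshold of the study but had a limma adjusted p of 0.0985, which became 0.0259 without 12-month array 2 and 0.126 to 0.230 without any other array. The threshold of the study was missed without 3-month array 1 or 3, and with normexp the difference was 1.58 (2.98-fold). Eif2ak2, for the double-stranded RNA kinase PKR, differed by -0.17 with overlapping arrays and an adjusted p of 0.701. Eif2ak4, for the amino acid sensing kinase GCN2, was well above background on all 3-month arrays and on no 12-month array. Its measured means were 4.93 and 3.79, a difference of -1.13 (95% interval -2.92 to 0.65) with overlapping arrays and a limma adjusted p of 0.324. With 12-month values raised to the lowest signal of any probe well above background on their array, it was 1.09-fold lower. That level is not a strict limit, so no smallest fold is given.

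Of the 6 factors that act at the start codon, 0 were called by limma at an adjusted p under 0.05 and 2 passed an unadjusted p under 0.05 and the threshold of the study, both higher at 12 months. Eif1 encodes eIF1, which keeps the ribosome from starting at a wrong codon. Its level was 12.17, 11.97 and 10.32 at 3 months and 13.75, 12.53 and 13.87 at 12 months. The ages did not overlap, and the difference was 1.90 (SE 0.59, 3.72-fold), past the threshold of the study with a limma adjusted p of 0.0875. Its close relative Eif1b differed by -0.14, and the log2 ratio of Eif1 to Eif1b was 2.04 higher at 12 months without overlap (exact permutation p = 0.1).

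Eif1ax encodes a form of eIF1A, which works with eIF1 in scanning. Its level was 10.63, 10.94 and 10.06 at 3 months and 11.82, 11.62 and 11.66 at 12 months, so that the ages did not overlap. The difference was 1.16 (SE 0.29, 2.23-fold) with a limma adjusted p of 0.0552, past the threshold of the study only, which it missed without 3-month array 3 (0.92). Eif1a, for the other form of eIF1A, differed by 0.52 (adjusted p of 0.209), and the ratio of Eif1ax to Eif1a overlapped between the ages, with a change of 0.64 (exact permutation p = 0.3). Eif1ad, for a protein with an eIF1A domain, differed by -0.96 with overlapping arrays. Eif5b, for the GTPase that joins the ribosomal subunits, had the smallest difference of these genes at 0.03 (95% interval -0.47 to 0.53). The array files hold no probe sequences, so whether a probe also binds the RNA of a close relative was not tested.

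None of the 9 eIF3 subunit genes was called by limma or passed the threshold of the study, and 1 had an unadjusted p under 0.05. This was Eif3a, the gene of the large scaffold subunit. Its level was 12.90, 13.20 and 12.40 at 3 months and 13.78, 13.95 and 13.69 at 12 months, without overlap, with a difference of 0.98 (SE 0.28) and a limma adjusted p of 0.0731. Eif3e and Eif3j also had higher 12-month values without overlap, by 0.28 and 0.34, but with the shift to a common 75th percentile the difference of Eif3e was below 0. Eif3d, for a subunit that can itself bind the cap of some mRNAs, was the only one lower without overlap, by a difference of -0.51 (adjusted p of 0.164). The smallest difference was that of Eif3c at -0.05. The median over the 9 genes was 0.18, but it was -0.13 when arrays were shifted to a common 75th percentile, where 6 of the 9 were below 0, so that its sign depended on the scaling.

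Of the 8 factors that bind the cap and open the mRNA, 1 was called, Eif4e3, and 2 passed the threshold of the study, Eif4e3 and Eif4a1, all higher at 12 months. Eif4e3 encodes a cap-binding relative of eIF4E. Its level was 5.64, 6.85 and 5.01 at 3 months and 8.11, 7.94 and 8.07 at 12 months, all 12-month arrays being higher and close to each other. The mean rose from 5.84 ± 0.94 to 8.04 ± 0.09 (n = 3), a difference of 2.20 (SE 0.46) or 4.61-fold, with a limma adjusted p of 0.0377. Without 1 array the call was made only when 3-month array 2 was left out (0.0176), the other 5 fits giving 0.0508 to 0.129, and with the shift to a common 75th percentile it was 0.0502. With normexp the difference was 1.30, or 2.47-fold.

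Eif4e, the gene of the main cap-binding factor, was measured at 11.01, 10.94 and 11.23 at 3 months and at 9.99, 10.40 and 10.56 at 12 months. All 12-month arrays were lower, but the difference of -0.74 (SE 0.25) had a limma adjusted p of 0.104 and was not called. The log2 ratio of Eif4e3 to Eif4e was 2.94 higher at 12 months, without overlap (exact permutation p = 0.1).

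Eif4a1 encodes the helicase eIF4A. Its level was 10.95, 11.12 and 8.97 at 3 months and 12.54, 11.11 and 13.00 at 12 months, so that 12-month array 2 lay within the 3-month range. The difference of 1.87 (SE 0.72, 3.66-fold) passed the threshold of the study, with a limma adjusted p of 0.130. It missed that threshold without 3-month array 3 (a difference of 1.18, unadjusted limma p of 0.0953) and without 12-month array 1 (0.0917) or 3 (0.105). Eif4a2, for the second form of the helicase, differed by 0.59 with overlapping arrays, and the Eif4a1 to Eif4a2 ratio overlapped as well, with a change of 1.28 (exact permutation p = 0.4).

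Eif4b, for a stimulator of the helicase, was measured by a pair of probes with differences of 0.48 and 0.92 and adjusted p values of 0.319 and 0.535. Eif4h, for a related stimulator of the helicase, was lower without overlap by a difference of -0.36 (adjusted p of 0.280). Of the scaffold genes, Eif4g3 had 3-month values of 5.93, 6.23 and 6.28 and 12-month values of 7.68, 6.03 and 9.57. Here 12-month array 2 was within the 3-month range and array 3 far above it, and the difference of 1.62 (SE 0.81) was not called, with an adjusted p of 0.212. Eif4g2, for a scaffold that does not bind eIF4E, differed by -0.18 with 3-month values of 15.30 to 15.34.

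Eif4ebp2 encodes a 4E binding protein, which blocks eIF4E. Its level was 3.57, 5.61 and 3.93 at 3 months, where 2 of the 3 arrays were well above background, and 5.83, 5.88 and 7.45 at 12 months. The ages did not overlap, though 3-month array 2 lay close to the 12-month values. The difference was 2.02 (SE 0.66, 4.05-fold), past the threshold of the study with a limma adjusted p of 0.0958. That threshold was missed with normexp (a difference of 0.74, or 1.67-fold), with the shift to a common 75th percentile (unadjusted limma p of 0.0565) and without 3-month array 1 or 3 or 12-month array 3. Eif4ebp1 differed by -0.64 with overlapping arrays (adjusted p of 0.366), and the log2 ratio of Eif4ebp2 to Eif4ebp1 was 2.66 higher at 12 months, without overlap (exact permutation p = 0.1). Eif5a, for a factor that carries the modified amino acid hypusine and helps elongation and termination, differed by -0.10 (95% interval -0.70 to 0.51).

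**Figure D3:**
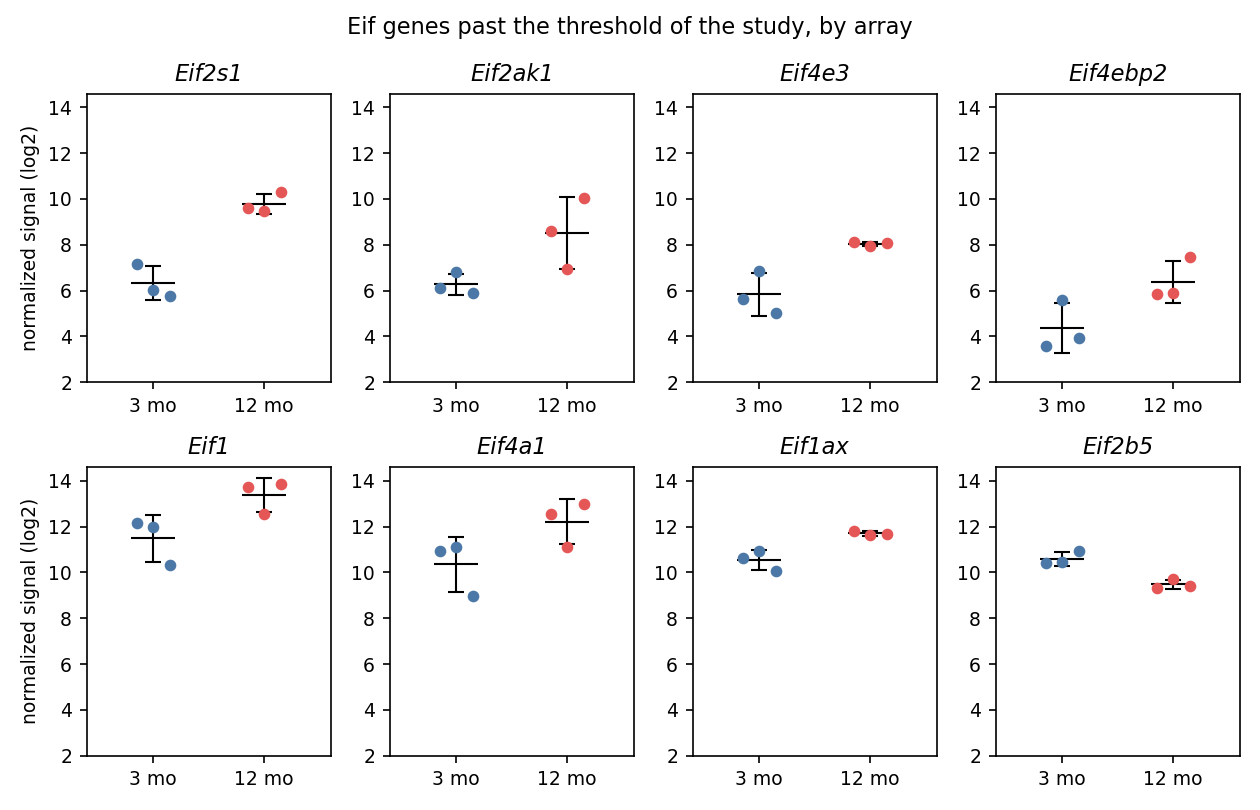
Normalized signal (log2 scale) on each array for the 8 Eif genes past the threshold of the study, with 3-month arrays left and 12-month arrays right in each panel, a line at the mean and bars of 1 SD (n = 3). The ages do not overlap except for Eif4a1, and the 12-month arrays of Eif4e3 and Eif1ax lie close together while those of Eif2ak1 and Eif4a1 are spread.

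The 8 ratios between related factors were formed after the per-array values had been seen, and the levels of different probes are not compared by them, only their changes. The ratios without overlap were 5, namely those of Eif2s1 to Eif2s2 and to Eif2s3, Eif4e3 to Eif4e, Eif4ebp2 to Eif4ebp1 and Eif1 to Eif1b. Each had an exact permutation p of 0.1, the smallest possible, and an adjusted p of 0.16. With the pairs picked on these values, the lack of overlap and the p values are descriptions and add no support to the calls. The ratio of Eif4g3 to Eif4g2 differed by 1.80 with overlapping arrays. All 8 kept their sign in all 8 alternatives run on them, the Eif2s1 to Eif2s2 change running from 2.70 to 4.01. A ratio shows that a pair changed unequally, not that one of the pair was unchanged.

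**Figure D4:**
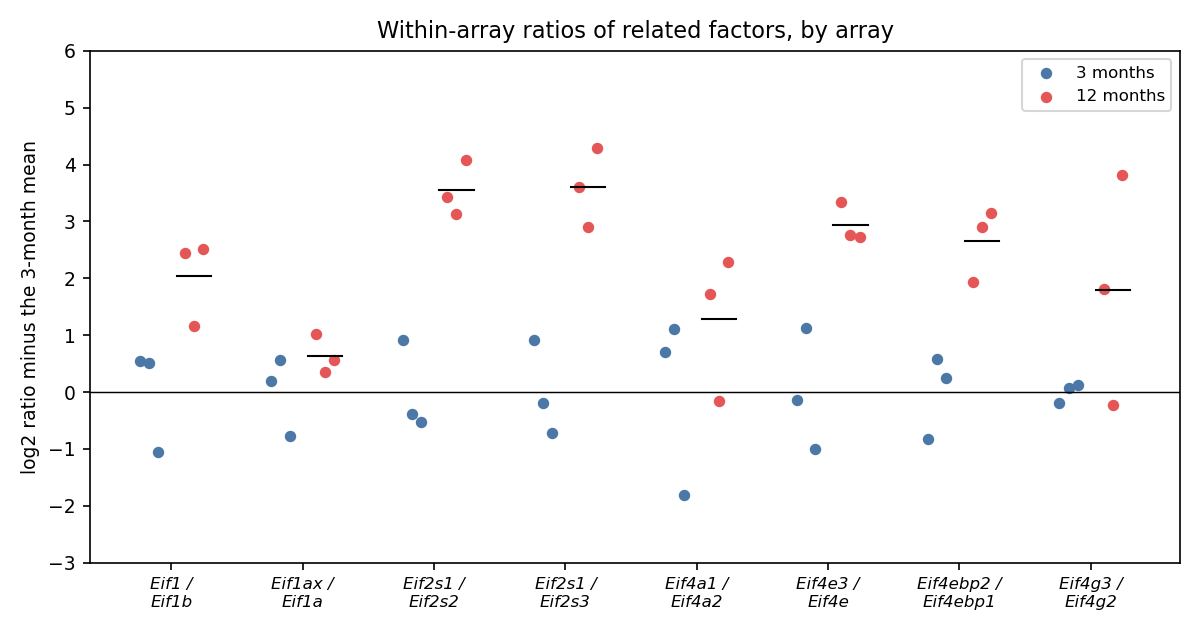
Log2 ratio of related factors within each array, minus its 3-month mean, with 1 point per array and a line at each 12-month mean. For the pairs led by Eif1, Eif2s1, Eif4e3 and Eif4ebp2 all 12-month points lie above all 3-month points, whereas those led by Eif1ax, Eif4a1 and Eif4g3 overlap.

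The spread within an age was not the same for all of these genes. The median SD of the 37 genes was 0.26 at 3 months and 0.24 at 12 months, beside 0.40 and 0.35 over all tested probes, so their median spread was the smaller. The 37 genes were also brighter, with medians of 12.3 to 12.8 on the arrays, against 8.66 to 8.67 over all kept probes. The comparison was not matched for signal, and the part of brightness in the spread was not tested. The 7 genes past the threshold of the study in the higher direction had 12-month SDs from 0.09 for Eif4e3 to 1.56 for Eif2ak1. In 6 of them 3-month array 3 was the lowest of its age, and in 6 of them 12-month array 2 was the lowest of its age. Both held together for 6 of the 7, for 13 of the 37 initiation factor genes (35.1%) and for 17.7% of the 17876 tested probes with a value on every array. It also held for 4 of 8 acinar, 2 of 3 duct, 2 of 4 endothelial, 2 of 5 beta cell, 1 of 6 other endocrine, 1 of 6 immune, 1 of 4 stellate, 0 of 5 Schwann and 0 of 3 red blood cell marker probes, and their part in these values was not tested. Without 3-month array 3 the threshold of the study was passed by 3 genes higher and 0 lower, and without 12-month array 2 by 9 higher and 3 lower.

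Other genes of translation control were described from 8 lists, of 57 genes in all. A probe was found for 46, and 45 were tested. At an adjusted p under 0.05, 2 of the 45 were higher and 1 was lower, beside 5.32% and 3.05% of all tested probes. By the threshold of the study 5 were higher and 2 lower, beside 10.1% and 11.9%. Without overlap 11 genes were higher and 7 lower, beside 16.5% and 22.6%. The median difference was 0.20, beside -0.17. The difference between these lists and all probes was not tested.

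Around eIF2 phosphorylation, no tested gene was called. Ppp1r15b, a regulatory subunit that directs a phosphatase to eIF2 alpha, was measured at 9.16, 10.04 and 8.01 at 3 months and 11.03, 10.93 and 11.13 at 12 months. The ages did not overlap, and the difference of 1.96 (SE 0.50) passed the threshold of the study with a limma adjusted p of 0.0571. Its partner Ppp1cb, for the catalytic subunit, differed by 0.95 without overlap (adjusted p of 0.0535). Of the 9 genes of the response to eIF2 phosphorylation, Cebpg alone passed the threshold of the study, with a difference of 1.43 and an adjusted p of 0.0970. Atf4, the transcription factor at the head of that response, was lower without overlap by a difference of -0.40 (adjusted p of 0.221). Dnajc3, for an inhibitor of eIF2 kinases, gave no value on any 3-month array and was not tested.

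In the mTORC1 list, which holds the kinase complex that releases eIF4E from its binding proteins and its regulators, 1 of 12 genes was called higher and 1 lower. Akt1s1, for the mTORC1 inhibitor PRAS40, had 3-month values of 3.39, 4.63 and 2.31 and 12-month values of 8.36, 6.50 and 8.59. Only 1 of the 3-month arrays was well above background, so the gene passed the filter through the 12-month arrays. The measured difference was 4.37 (SE 0.75, limma adjusted p of 0.0229), which rests on those dim 3-month values and was 1.84 with normexp. Rptor, for the subunit raptor that presents substrates to the kinase, was measured at 13.44, 13.25 and 13.37 at 3 months and at 12.12, 12.44 and 12.12 at 12 months. It was lower without overlap, by a difference of -1.12 (SE 0.23, adjusted p of 0.0341 in limma). Of the 6 fits without 1 array, Rptor was called only without 12-month array 2, and Akt1s1 only without 12-month array 2 or 3-month array 2. The median of the list was -0.22.

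In the other lists, Pabpc1, for the poly(A) binding protein that joins the tail of the mRNA to eIF4G, was called higher. Its values were 14.17 and 14.04 at 3 months and 15.31, 15.63 and 15.67 at 12 months, with no value on 3-month array 2, and the difference of 1.43 (SE 0.27) had a limma adjusted p of 0.0371. Without any 1 array that holds its value it was not called (0.0541 to 0.120), nor was it with the shift to a common 75th percentile (0.0742). Denr, for a factor of reinitiation and ribosome recycling, was 1.41 higher and Abcf1, for a protein that binds eIF2, differed by -1.02, both past the threshold of the study only. None of the 7 elongation factor, 2 termination factor and 2 eIF5A modification genes was called.

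**Figure D5:**
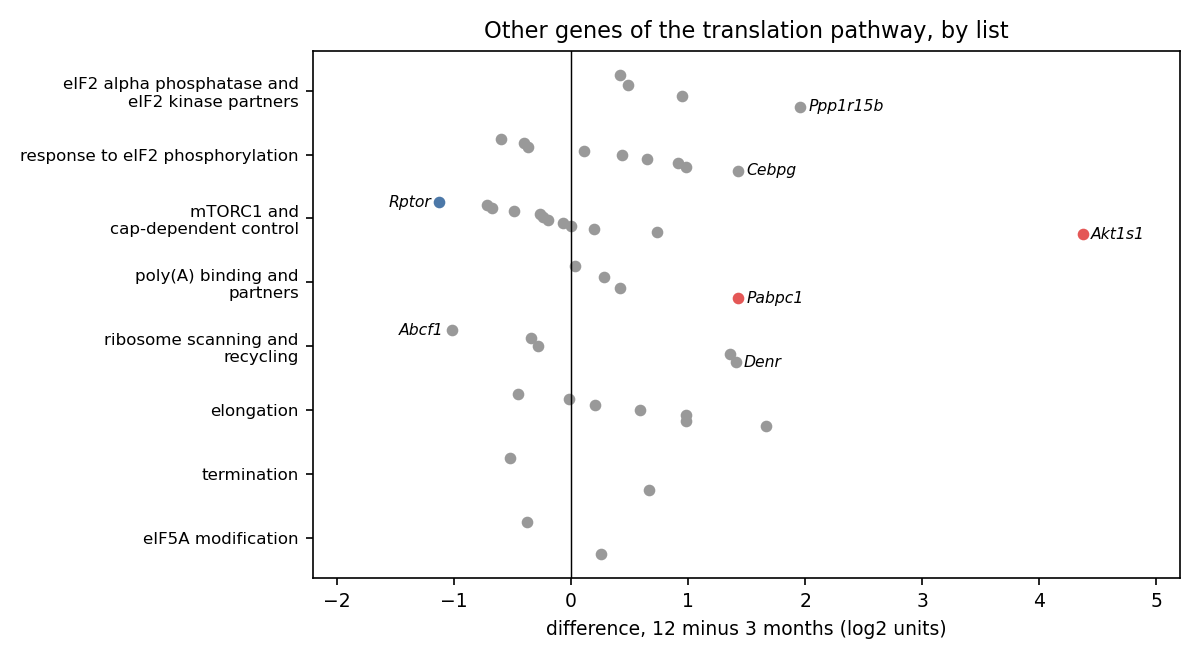
Difference between 12 and 3 months (log2 units) of 45 other genes of translation control, 1 point per gene, by list. Red and blue points are higher and lower at an adjusted p under 0.05, and the genes past the threshold of the study are named, with Akt1s1 farthest to the right at 4.37 and Rptor farthest to the left at -1.12.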

How the data were processed

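Islet RNA was hybridised by the authors to 1-colour Arraystar arrays made by Agilent. Per the file headers, the deposited scanner files hold spot intensity from Agilent Feature Extraction 11.0.1.1, background-subtracted and not normalized between arrays. The authors also deposited quantile-normalized log2 values for part of the mRNA probes, which were used as an alternative. Here log2 intensities of spots sharing a probe were averaged and quantile normalized over 24684 non-control probes. Probes well above background on at least 3 of 6 arrays were kept (17944, of which 17941 could be tested), and saturation was found on 0 probes. Tests between the ages used limma 3.58.1 in R 4.3.3 without a block. Gene names came from RefSeq mRNA accessions matched to a table of assembly GRCr8 (14274 of 15323 mRNA probes), and each gene was read from its probe with the highest mean. The array design uses another build, so only the RefSeq windows carry coordinates. Arrays have no read depth, and their number limits the precision.

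The members, role lists, pathway lists, markers and tests were chosen with earlier results of these data known. Eif genes past either threshold, those with the largest and smallest difference of each role and those not above background at an age were named by rule. Other named genes, the ratios and the count of lowest arrays were chosen after their values were seen. The array numbers come from the labels, except that of 12-month array 3, which only names it. The labels do not say that the numbers pair rats, so the main fit did not use them as pairs. Deviations from the age means correlated at -0.01, -0.31 and -0.26 between arrays of the same number. These correlations cannot show whether rats were paired.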

Additional observations from a re-analysis of the deposited data

How the results depend on the processing

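The 8 Eif genes past the threshold of the study and the 8 ratios kept their sign in all alternatives run on them. Eif2s1 stayed below an adjusted p of 0.05 in 16 of 21 alternatives, Eif2b5 and Eif4e3 in 10 of 21, Eif1ax in 5, Eif2ak1 in 2, Eif1 and Eif4a1 in 1 each, and Eif4ebp2 in 0 of 20. The alternatives that chose or averaged the probes of a gene could not change these 8 genes, as none had another tested probe. The authors' values were nearly those of the main fit, with a correlation of at least 0.9996 on each array. These counts are therefore descriptions and not separate support. Against 2 higher and 1 lower Eif gene at an adjusted p under 0.05, and 2 higher and 1 lower pathway gene, the counts were 1 and 0, and 1 and 2, with a shift to a common 75th percentile. They were 4 and 3, and 5 and 2, with normexp on the median spot and background signals. With probes above background on all 6 arrays, 2 Eif and 2 pathway genes were lower. With no filter on dim probes, 2 Eif genes were lower and 4 pathway genes higher. They were 4 and 2, and 5 and 2, with an intensity trend and robust variances, 7 and 3, and 6 and 2, with array weights, and 7 and 2, and 6 and 2, at an adjusted p under 0.1. With the unpaired t-test they were 0 and 0, and 0 and 2. They were 0 throughout with the paired t-test and with only the 4 arrays whose deposited names end alike (3-month arrays 2 and 3, 12-month arrays 1 and 2).

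With the replicate number as a block, 0 Eif and 0 pathway genes were called in either direction, for 3 pairs and for the numbered pairs only, and Eif2s1 had an adjusted p of 0.0698 and 0.208. The numbered pairs left 2 Eif genes higher and 0 lower by the threshold of the study, and 13 lower without overlap, of fewer arrays.

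By the threshold of the study, 3 Eif genes were lower with the 75th percentile shift and 0 with normexp, against 1. With the unpaired t-test 3 were higher and with the paired t-test 2, against 7. The 75th percentile shift gave 16 genes lower without overlap, against 6, and moved the median of the Eif genes from -0.05 to -0.26 and that of all probes from -0.17 to -0.40. It turned the sign of Eif3e, Eif3g and Eif5b, and normexp that of Eif3c and Eif5a, with the median of the Eif genes at 0.01. Normexp also lowered the ratio change of Eif2s1 to Eif2s2 to 2.70, of Eif4e3 to Eif4e to 1.96 and of Eif4ebp2 to Eif4ebp1 to 1.30.

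Without 1 array in turn, the adjusted counts of Eif genes ran from 1 to 3 higher and 0 to 1 lower, and those of pathway genes from 0 to 3 higher and 0 to 1 lower. The threshold of the study gave 3 (without 3-month array 3) to 9 (without 12-month array 2) higher and 0 to 3 lower, in the same order. Arrays did not overlap for 9 to 13 genes higher and 6 to 12 lower, and the median ran from -0.05 to 0.03. The 1 higher call was that of fits without 3-month arrays 1 or 3 or 12-month arrays 1 or 3, a lower Eif gene was called only without 12-month array 2, the 11 and 12 genes lower without overlap came without 3-month array 3 and 12-month array 2, and no pathway gene was called without 3-month arrays 1 or 3 or 12-month arrays 1 or 3. The cause of these shifts was not tested. The scan as a block could not be fitted, as each age lies in 1 scan. Low signals limit the values of Eif2ak4, Eif4ebp2 and Akt1s1, which were not well above background on every array. Eif2s1, Eif2ak1, Eif4e3 and Eif4g3 were, but their 3-month means were also dim, at 6.32, 6.26, 5.84 and 6.15. The medians of the Eif genes on the 3-month arrays were 12.4 to 12.7. With normexp the fold went from 11.1 to 6.46 for Eif2s1, from 4.75 to 2.98 for Eif2ak1 and from 4.61 to 2.47 for Eif4e3. The part of low signal in these differences was not tested.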
